A study of Homo sapiens with 8 samples.

Results

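The cytosolic ribosomal protein genes encode the proteins of the ribosomes that translate nuclear-encoded mRNA. They were selected by name from the platform annotation, as every symbol of RPL or RPS with a number and an optional A, X, Y1 or L, together with RPSA, RPLP0, RPLP1 and RPLP2. Pseudogenes, the RPS6K kinases and RPS27L were left out. A probe set was named for 48 of the 81 genes that this rule finds in a RefSeq gene table, 17 of 32 for the small subunit and 31 of 49 for the large subunit, out of 14884 genes measured in all. The other 33 genes, among them the stalk proteins RPLP0, RPLP1 and RPLP2 and the 5S RNA-binding protein RPL5, were not analysed here. The selection used names alone and no measured value.

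The cells were MOLM-14, an established human acute myeloid leukaemia line, and all of them received doxycycline for 72 h. In 4 arrays the cells carried an inducible hairpin RNA (shCD39) that targets ENTPD1, which encodes the ectonucleotidase CD39, and in 4 arrays a scrambled hairpin (shCTRL). The labels describe the 4 arrays of each group as technical replicates and the material as clones without giving their number, so the p-values below measure only the spread between these arrays. Values are log2 expression per probe set, and where a gene had several probe sets the one brightest on average across the 8 arrays stood for it. The normalization behind them sets the probe intensities of all arrays to 1 shared distribution before they are combined into probe sets. A uniform change of ribosomal protein mRNA together with all other mRNA would therefore not be seen. The deposited values per probe set do not share 1 distribution exactly, and their array medians ran from 3.13 to 3.17.

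Each ribosome holds a single copy of nearly every ribosomal protein, and cells make these proteins in matched amounts. Their mRNAs typically begin with a cytosine followed by a run of pyrimidines, the 5′ terminal oligopyrimidine (TOP) tract, through which the kinase complex mTORC1 and the RNA-binding protein LARP1 control their translation and stability. Several ribosomal proteins have a second role when ribosome assembly fails: RPL5 and RPL11 bind the ubiquitin ligase MDM2 and so stabilise p53. Loss of a copy of RPS19, or of several other members, causes Diamond-Blackfan anaemia, a failure of red cell production.

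The TOP tract was looked for at the annotated starts, because it is the feature that defines these mRNAs as a class and the selection made no use of it. RefSeq promoter entries (GRCh38.p14) matched 43 of the 48 genes, with 52 starts. A C at the first transcribed base followed by at least 4 pyrimidines (C or T), read on the transcribed strand only, was found at 30 of the 52 starts (57.7%). Among all 35116 starts of that RefSeq set such a run stood at 4.07%, and among the 81 starts of mitochondrial ribosomal protein genes 7.41%. Counted by gene, 30 of 43 members had a run at a start or more (69.8%), against 5.14% of all 27305 genes. The starts of the genes to which the results below return are printed from 15 bases before the first transcribed base to 15 bases from it on, 5′ to 3′, with the run in capitals where there is one.
RPS19, chr19:41860240-41860269, plus strand: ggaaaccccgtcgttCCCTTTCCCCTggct
RPS19, a further annotated start, chr19:41860389-41860418, plus strand: cccgtcccgccccctagagccgcggccacg
RPS18, chr6:33272060-33272089, plus strand: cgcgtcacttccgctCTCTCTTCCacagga
RPS27, chr1:153990747-153990776, plus strand: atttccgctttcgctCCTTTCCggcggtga
RPS26, chr12:56041903-56041932, plus strand: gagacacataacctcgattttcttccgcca
RPL24, chr3:101686704-101686733, minus strand: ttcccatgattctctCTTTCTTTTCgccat
RPL35A, chr3:197950175-197950204, plus strand: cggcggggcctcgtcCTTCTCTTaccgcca
RPL39, chrX:119791616-119791645, minus strand: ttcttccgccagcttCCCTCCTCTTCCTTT
RPS19 thus had a run at 1 of its 2 annotated starts, and the RPS26 start held none at its first base, which says only that these letters are not in this place.

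The hairpin and the arrays were checked first. ENTPD1 averaged 2.56 ± 0.35 in shCD39 and 3.34 ± 0.54 in shCTRL (log2, SD, n = 4 each). This difference of -0.79 (SE 0.25) did not pass the threshold (limma adjusted p = 0.178), and the groups overlapped. ENTPD1 read 2.42, 2.14, 2.72 and 2.95 in shCD39 and 3.16, 2.88, 3.21 and 4.12 in shCTRL. Apart from shCTRL array 4 these values lay near or below the array medians of 3.13 to 3.17. A reading this dim limits what the check can say about the hairpin. The shCD39 array 4 correlated at 0.984 on average with the shCTRL arrays and at 0.979 with the other shCD39 arrays, so values without it are given beside the main counts. Of the 10 markers fixed for a myeloid leukaemia line 8 were measured, and 6 exceeded the array median on every array. So did 1 of 3 measured T and NK cell markers and the 1 measured B cell marker. The same held for 2 of 3 erythroid and megakaryocyte markers and 3 of 4 fibroblast and epithelial markers. This count therefore did not set the myeloid list apart. The mean level of the myeloid markers ran from 6.23 to 6.73 in shCD39 and from 6.05 to 6.28 in shCTRL. The 3 measured T and NK cell markers averaged 4.15 to 4.70 in shCD39 and 4.12 to 4.41 in shCTRL, the 3 erythroid and megakaryocyte markers 3.70 to 4.05 in shCD39 and 3.68 to 3.82 in shCTRL, and the 4 fibroblast and epithelial markers 4.67 to 4.83 in shCD39 and 4.47 to 4.65 in shCTRL. The 1 measured B cell marker, PAX5, read 6.46 to 6.62 in shCD39 and 6.68 to 7.00 in shCTRL. The part of these shifts in the values below was not tested.

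No ribosomal protein gene passed the threshold in shCD39 against shCTRL. The limma fit across all genes called 0 of the 48 at an adjusted p of 0.05, where 14 genes, or 0.0941% of all, were called. At an unadjusted p under 0.05 it marked 2 members, RPS19 and RPS18, which is 4.17% of the members against 14.7% of all genes. Without shCD39 array 4 the count past the threshold was again 0, where 423 of all genes were called. There 4 members (8.33%) were at an unadjusted p under 0.05, against 18.9% of all genes. The differences were small: 6 of 48 members (12.5%) differed by more than 0.2 on the log2 scale in either direction, against 31.5% of all genes.

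The median log2 fold change was 0.02 over the 48 members and 0.01 over all genes. Mean expression was higher in shCD39 for 29 members and lower for 19, so 60.4% were higher, against 52% of all genes. This split moved with the scaling and with 1 array. It was 39 of 48 after quantile normalization (81.2%, all genes 54.9%), 41 of 48 after cyclic loess (85.4%, all genes 51.4%) and 24 of 48 after median centring (50%, all genes 48.4%). Without shCD39 array 2 it was 19 of 48 (39.6%, all genes 51.4%). The central 50% of members lay between -0.02 and 0.08, while that of all genes lay between -0.12 and 0.13.

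**Figure D1:**
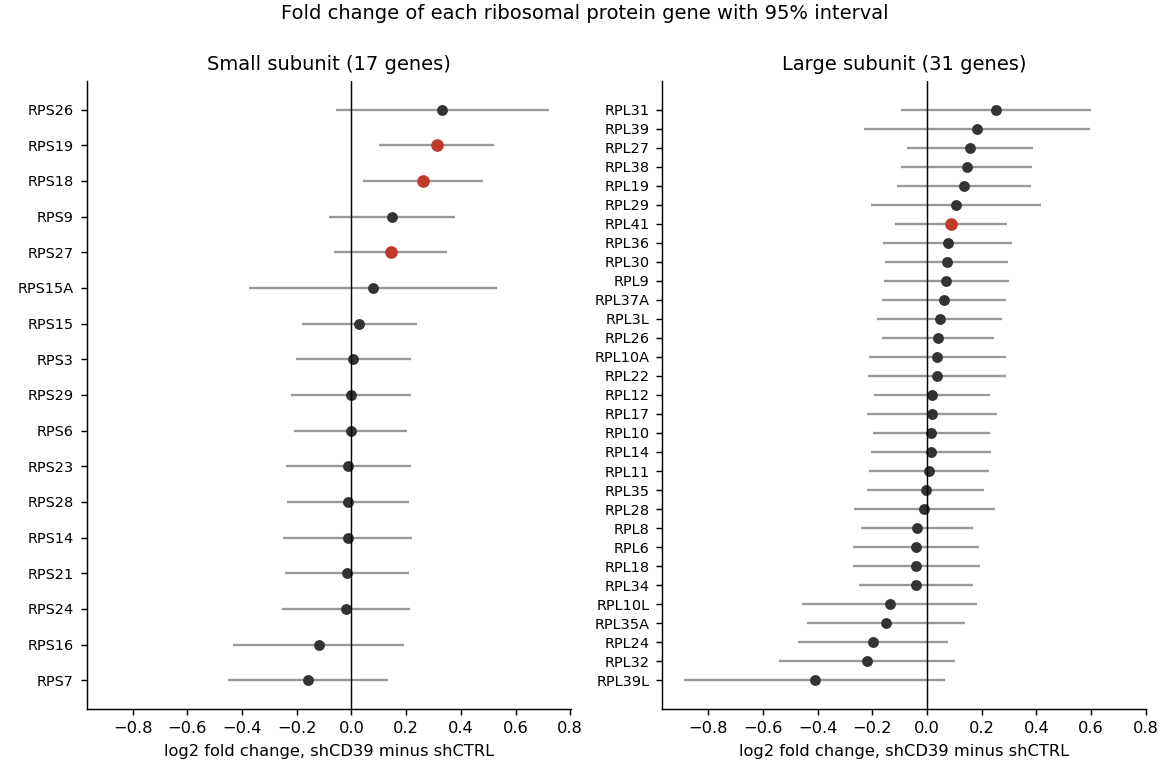
Log2 fold change (shCD39 minus shCTRL, horizontal axis) of the 17 small-subunit and 31 large-subunit genes, each a dot with its 95% interval from limma; red dots mark the 4 genes whose groups did not overlap. Most dots lie close to 0, with RPS26, RPS19 and RPS18 at the upper end and RPL39L at the lower end.

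The fit bounds most members narrowly. In 41 of the 48 the 95% interval of the log2 fold change, not adjusted for the number of genes, lay within 0.5 of 0 on both sides (85.4%, against 64.7% of all genes). The 7 exceptions were RPS19, RPS26, RPS15A, RPL31, RPL39, RPL32 and RPL39L. The spread between arrays of 1 group was correspondingly small, with a median residual SD of 0.10 over the members and 0.19 over all genes. RPL26, a protein near the exit of the peptide tunnel, had the smallest at 0.036. It read 9.90, 10.01, 9.97 and 9.99 in shCD39 arrays 1 to 4 and 9.90, 9.91, 9.94 and 9.94 in shCTRL arrays 1 to 4.

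**Figure D2:**
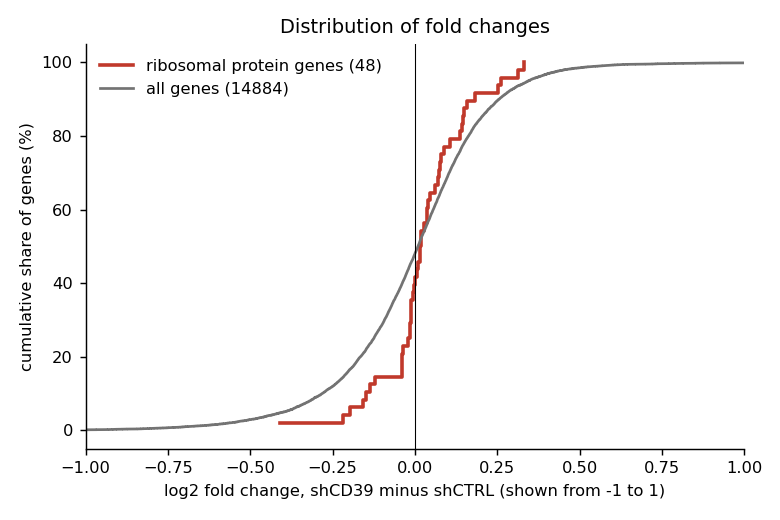
Cumulative share of genes (vertical axis, percent) against the log2 fold change of shCD39 minus shCTRL (horizontal axis, shown from -1 to 1) for the 48 ribosomal protein genes and all 14884 genes. The curve of the ribosomal protein genes climbs within a narrower range, its central 50% lying between -0.02 and 0.08 against -0.12 and 0.13 for all genes.

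Small-subunit genes had a median of 0.00, with 9 of 17 higher in shCD39 (52.9%, against 52% of all genes). RPS19 and RPS18 were the 2 at an unadjusted limma p under 0.05 (11.8%, against 14.7% of all genes). RPS19, a protein of the small-subunit head needed to mature its RNA, read 11.32, 11.37, 11.33 and 11.22 in shCD39 arrays 1 to 4. In shCTRL arrays 1 to 4 it read 11.01, 10.93, 11.00 and 11.05. Every shCD39 array was above every shCTRL array, with means of 11.31 ± 0.06 and 11.00 ± 0.05 (SD, n = 4 each). The log2 fold change was 0.31 (SE 0.10), or 1.24-fold, and did not pass over all genes (limma adjusted p = 0.170). It had the lowest adjusted p of the members, the exact permutation p was 0.0286, the smallest that 4 against 4 arrays can give, and without shCD39 array 4 the adjusted p was 0.0942.

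RPS18, also of the small-subunit head, was measured by a pair of probe sets that differed. The brighter set, which represents the gene, read 8.81, 8.99, 8.92 and 8.99 in shCD39 and 8.64, 8.59, 8.77 and 8.65 in shCTRL. The groups did not overlap and differed by 0.26 on the log2 scale (SE 0.10, limma adjusted p = 0.249). The dimmer set read 7.93, 7.89, 7.97 and 7.99 in shCD39 and 7.95, 7.88, 7.90 and 7.88 in shCTRL. Those groups overlapped, and the log2 fold change was 0.04 (SE 0.09, exact permutation p = 0.2).

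RPS27, a zinc finger protein of the small subunit, read 12.41, 12.51, 12.51 and 12.49 in shCD39 against 12.29, 12.33, 12.40 and 12.33 in shCTRL. The groups did not overlap, and the log2 fold change was 0.14 (SE 0.09, limma adjusted p = 0.533). RPS26, which lines the path of the mRNA, had the highest mean difference of all members but wide groups. It read 6.49, 5.98, 6.12 and 5.92 in shCD39 and 6.05, 5.80, 5.31 and 6.02 in shCTRL, differing by 0.33 on the log2 scale (SE 0.18, limma adjusted p = 0.427). The low shCTRL array 3 weighed on this value, which was 0.17 without that array.

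RPS6, the substrate that gives the S6 kinases their name, read 7.98, 8.06, 8.03 and 8.09 in shCD39 against 8.06, 7.96, 8.09 and 8.06 in shCTRL, and the groups overlapped. Its log2 fold change of -0.003 had a 95% interval from -0.21 to 0.21. RPS14, the gene whose loss drives the anaemia of the 5q deletion syndrome, had -0.01 (interval -0.25 to 0.22), and RPS3, at the mRNA entry channel, 0.01 (interval -0.20 to 0.22). RPS7, another Diamond-Blackfan anaemia gene, had the lowest value of the small subunit. It read 4.74, 4.69, 4.64 and 5.13 in shCD39 and 4.75, 5.02, 5.10 and 4.96 in shCTRL, and the groups overlapped (log2 fold change -0.16, SE 0.13, limma adjusted p = 0.64). There shCD39 array 4 lay above every shCTRL array and the other 3 shCD39 arrays below every one, and without array 4 the log2 fold change was -0.27.

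Large-subunit genes had a median of 0.02, with 20 of 31 higher in shCD39 (64.5%, against 52% of all genes). At an unadjusted limma p under 0.05 there were 0 of them, against 14.7% of all genes. The difference between the subunits was not tested. RPL41, a very short and basic peptide at the joint of the subunits, was the large-subunit gene whose groups did not overlap. Its brightest probe set read 12.39, 12.36, 12.41 and 12.48 in shCD39 and 12.32, 12.34, 12.30 and 12.33 in shCTRL, which differ by 0.09 on the log2 scale (SE 0.09, limma adjusted p = 0.727). All 5 probe sets of RPL41 had higher means in shCD39, by 0.09 to 0.23, and the groups of 2 of them did not overlap. The dimmest set read 6.49, 5.71, 6.54 and 6.05 in shCD39 and 6.01, 6.02, 5.77 and 6.19 in shCTRL, so its groups overlapped widely. Only this dimmest set stood among sets of the gene's own chromosome in the check of probe set numbers below. The other RPL41 sets, among them both without overlap, are therefore uncertain as to the gene.

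**Figure D3:**
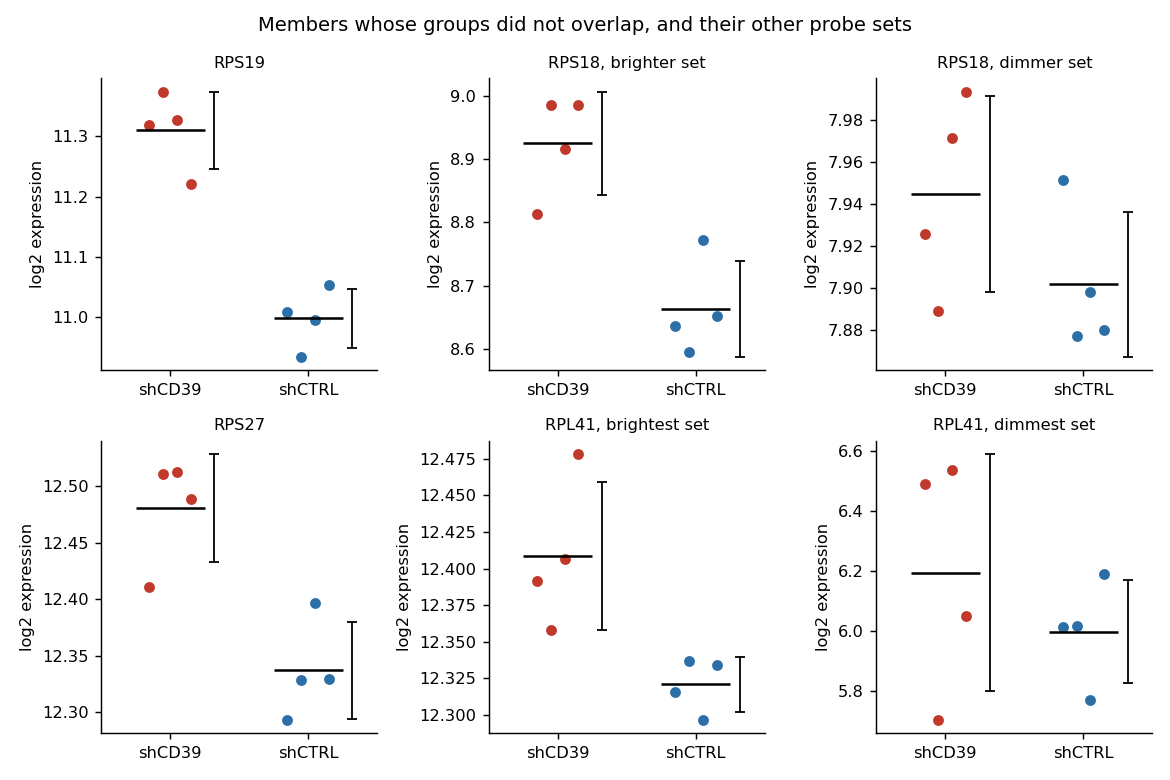
Log2 expression (vertical axis, scaled per panel) of RPS19, RPS18, RPS27 and RPL41 on the 4 shCD39 arrays (red, left) and the 4 shCTRL arrays (blue, right), with the mean as a line and the SD as a bar. RPS19, RPS27 and the brighter sets of RPS18 and RPL41 have groups that do not overlap, while the dimmer sets of RPS18 and RPL41 have groups that do.

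Groups without overlap were about as frequent as among all genes. They were found in 4 of 48 members (8.33%, against 7.85% of all genes), and in all 4 shCD39 was the higher group (3.61% of all genes). No member had shCD39 wholly below shCTRL (4.23% of all genes). Without shCD39 array 4 there were 6 (12.5%, against 17% of all genes): the same 4, with RPL39L and RPS7 below. Cyclic loess gave 9, all higher (18.8%, against 7.68% of all genes).

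The probe sets behind 3 of these 4 genes did not lie with their gene in the platform's numbering. Probe set numbers followed the genome: for 95.9% of the 16098 named probe sets, at least 80% of the 10 nearest named sets on either side belonged to the same chromosome as the gene itself. They belonged to another single chromosome for 37 probe sets, or 0.23%. Among the 48 sets that represent the ribosomal protein genes this was so for 3 (6.25%), those of RPS18, RPS27 and RPS28. The brighter set of RPS18, a chromosome 6 gene, stood among sets of chromosome 3, and its dimmer set among sets of chromosome 6. The set of RPS27 (chromosome 1) stood among sets of chromosome 12 and that of RPS28 (chromosome 19) among sets of chromosome 11. The set of RPL41 that represents the gene had neighbours of mixed chromosomes, with no single chromosome at 80%, as did those of RPL10, RPL12, RPL31, RPL8 and RPS7. Such mixed places held 6 of the 48 representing sets (12.5%), against 3.85% of all named sets. For RPL8 and RPS7 the commonest neighbour chromosome was still the gene's own, with 65% of neighbours each. Among the RPL41 sets only the dimmest stood among sets of its own chromosome 12. With a set beside its own chromosome required, 41 genes were left, and of these only RPS19 had groups without overlap. RPL8 and RPS7 were left out there as well. Ribosomal protein genes have many near-identical processed copies elsewhere in the human genome. Values of probe sets that did not stand mainly among sets of their own chromosome are therefore uncertain as to the gene. Whether they read a copy was not tested. The 26 ribosomal protein pseudogenes with a probe set of their own had a median log2 fold change of 0.0048. Of these 0 passed the limma threshold and 3 were at an unadjusted p under 0.05 (11.5%, against 14.7% of all genes).

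RPL39 and RPL19 also had a pair of probe sets each, on the own chromosome, and those of RPL39 differed in sign. RPL39, a small protein that lines the peptide exit tunnel, read 7.59, 8.41, 7.72 and 8.43 in shCD39 on its brighter set, against 7.70, 7.87, 7.95 and 7.90 in shCTRL. The shCD39 arrays 2 and 4 lay above every shCTRL array, array 1 below every one and array 3 among them, and the log2 fold change was 0.18 (SE 0.19, limma adjusted p = 0.717). Its dimmer set read 5.45, 5.58, 5.61 and 5.75 in shCD39 and 5.83, 5.82, 5.60 and 5.66 in shCTRL, with the opposite sign (-0.13, SE 0.11). For RPL19, which bridges the subunits, both sets had higher means in shCD39, with overlapping groups. The brighter set gave 0.14 (SE 0.11) and the dimmer set 0.41 (SE 0.15).

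The paralogs of restricted expression are the members that could exchange with a parent protein. RPL39L, the counterpart of RPL39 best known from the testis, read 4.42, 4.40, 4.01 and 5.08 in shCD39 and 5.05, 5.21, 4.45 and 4.83 in shCTRL. The shCD39 arrays 1 to 3 lay below every shCTRL array and array 4 among the higher ones. Its difference of -0.41 on the log2 scale (SE 0.22, limma adjusted p = 0.424) was the lowest of all members, and -0.61 without shCD39 array 4. RPL10L, the testis counterpart of RPL10, read 1.71, 1.88, 1.54 and 2.18 in shCD39 against 1.87, 1.99, 2.19 and 1.81 in shCTRL, all below the array medians of 3.13 to 3.17. RPL10, one of the last proteins to join the large subunit, had a log2 fold change of 0.02 (interval -0.20 to 0.23), with 11.63, 11.81, 11.65 and 11.71 in shCD39 and 11.72, 11.69, 11.73 and 11.61 in shCTRL. The groups of RPL10 overlapped. RPL3L, the counterpart of RPL3 in heart and skeletal muscle, read 4.33, 4.62, 4.43 and 4.55 in shCD39 and 4.46, 4.36, 4.44 and 4.47 in shCTRL, a log2 fold change of 0.05 (SE 0.10).

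RPL11, the MDM2-binding member, showed no difference beyond the spread of its arrays. It read 10.80, 10.89, 10.70 and 10.85 in shCD39 and 10.77, 10.78, 10.74 and 10.92 in shCTRL. The log2 fold change was 0.01 with a 95% interval from -0.21 to 0.23 (limma adjusted p = 0.983). Of the 21 genes listed for Diamond-Blackfan anaemia 16 were measured, all of them members, and 9 had higher means in shCD39. Their median was 0.00, 0 passed, and 1, RPS19, was at an unadjusted p under 0.05 (6.25%, against 14.7% of all genes).

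RPL24, which reaches from the large to the small subunit, read 6.52, 6.81, 6.30 and 6.72 in shCD39 and 6.80, 6.83, 6.85 and 6.66 in shCTRL (-0.20 on the log2 scale, SE 0.13, limma adjusted p = 0.519). RPL35A, a Diamond-Blackfan anaemia gene, read 6.38, 6.71, 6.21 and 6.75 in shCD39 and 6.66, 6.63, 6.73 and 6.63 in shCTRL (-0.15, SE 0.13). In both genes shCD39 arrays 1 and 3 lay below every shCTRL array, while arrays 2 and 4 did not. RPL32 read 5.15, 4.77, 5.05 and 5.19 in shCD39 against 5.43, 5.50, 4.95 and 5.16 in shCTRL (-0.22, SE 0.15), with overlapping groups. At the other end, RPL27 read 10.08, 10.30, 10.09 and 10.12 in shCD39 and 10.10, 10.04, 9.94 and 9.87 in shCTRL (0.16, SE 0.11). RPL31, at the tunnel exit, read 4.63, 5.09, 4.83 and 4.80 in shCD39 and 4.36, 4.86, 4.84 and 4.29 in shCTRL (0.25, SE 0.16). Both are Diamond-Blackfan anaemia genes, and their groups overlapped.

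**Figure D4:**
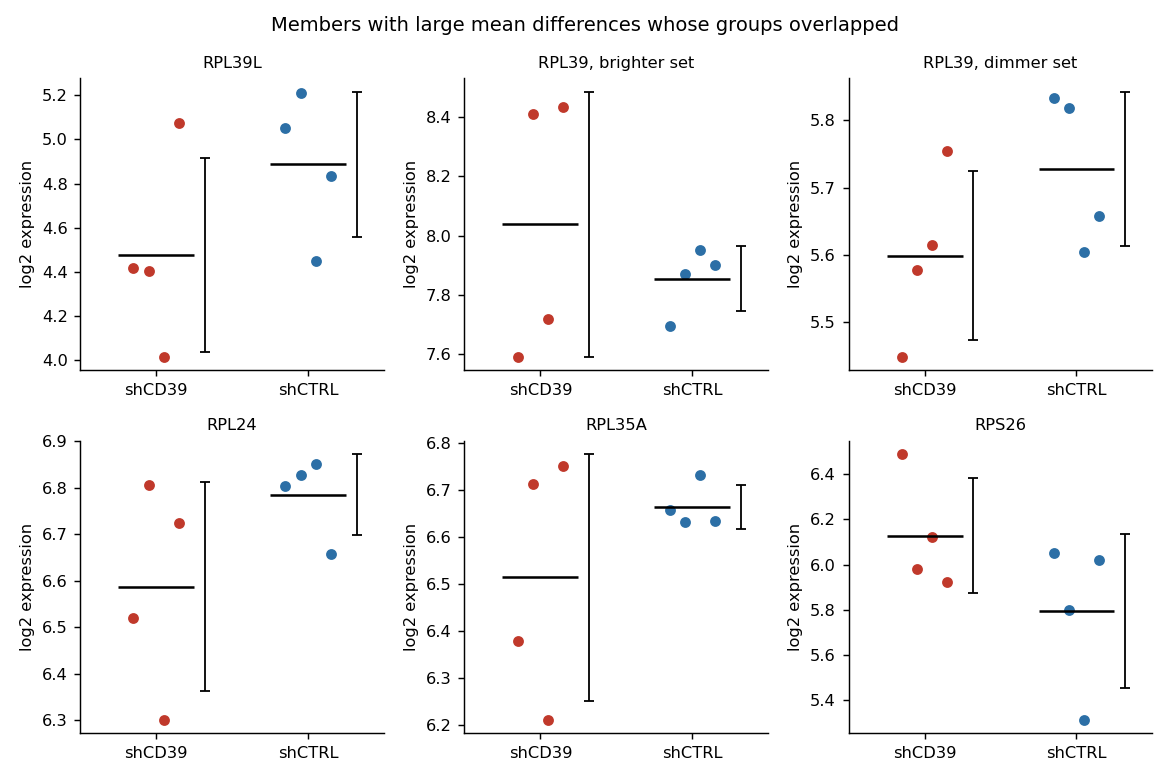
Log2 expression (vertical axis, scaled per panel) of RPL39L, both probe sets of RPL39, RPL24, RPL35A and RPS26 on the 4 shCD39 arrays (red, left) and the 4 shCTRL arrays (blue, right), with the mean as a line and the SD as a bar. In every panel the groups overlap, and on the brighter RPL39 set and RPL35A the shCD39 points form a high and a low pair.

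The members shifted together from array to array in both groups, with a wider range of medians in shCD39. Taken as the deviation of each gene from its shCTRL mean, the median member lay at -0.02, 0.08, -0.04 and 0.04 in shCD39 arrays 1 to 4. In shCTRL arrays 1 to 4 it lay at 0.03, 0.00, 0.01 and -0.03, and the median of all genes stayed between -0.01 and 0.01 on every array. Of the 48 members, 38 and 34 were above their shCTRL mean in shCD39 arrays 2 and 4, and 20 and 16 in arrays 1 and 3. In shCTRL arrays 1 to 4 the same counts were 34, 23, 26 and 15. Array 2 held the highest of the 4 shCD39 values in 21 members and the lowest in 2, while array 3 held the highest in 4 and the lowest in 22. Over all genes array 2 held the highest value in 22.2% and array 3 the lowest in 26.2%. RPS15A, a small-subunit protein, had the widest spread within groups after RPL39L, with 6.95, 7.83, 6.90 and 7.25 in shCD39 and 7.22, 7.24, 7.41 and 6.73 in shCTRL. The part of an array effect in these shifts was not tested.

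**Figure D5:**
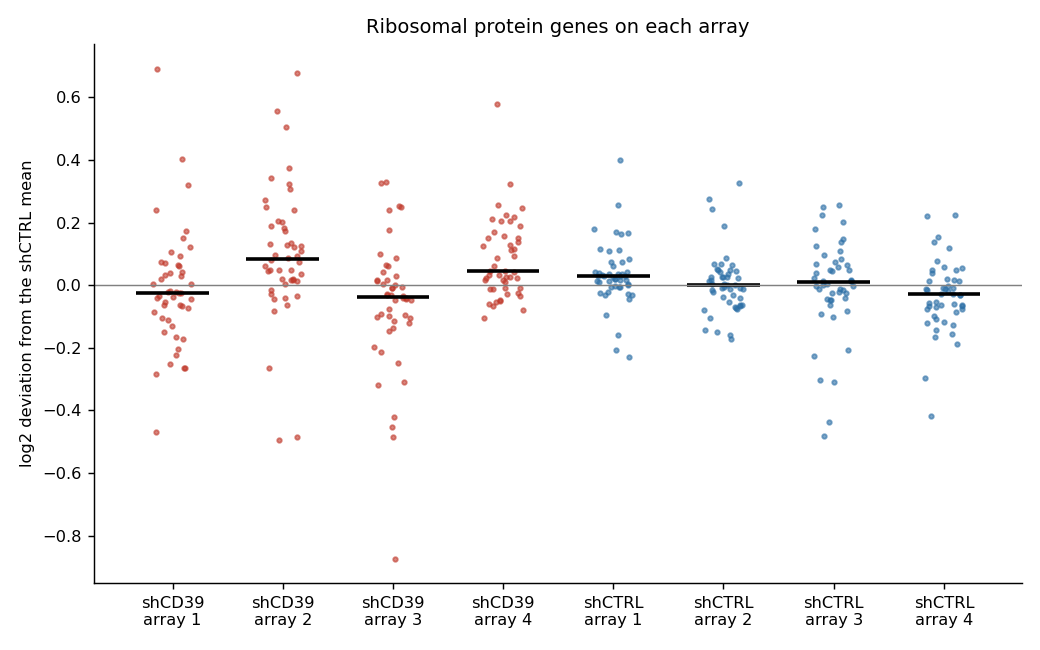
Deviation of each of the 48 ribosomal protein genes from its shCTRL mean (vertical axis, log2) on each array, shCD39 in red on the left and shCTRL in blue on the right, with the median as a line. The medians of shCD39 arrays 2 and 4 lie above 0 and those of arrays 1 and 3 below, while the shCTRL medians run from -0.03 to 0.03.

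Members with and without a TOP run at an annotated start had like medians. It was 0.01 over the 30 members with a run, 18 of them higher in shCD39, and 0.02 over the 13 without, 8 of them higher. The 4 genes whose groups did not overlap all had a run, as did 69.8% of the members with a promoter entry. They were 13.3% of the 30, against 7.85% of all genes. Among them were RPS18, RPS27 and RPL41 with the probe sets described above. The classes rest on the exact annotated base. With a run allowed to begin within 10 bases of it, 43 of the 52 member starts held one (82.7%, against 33.5% of all starts). Members counted as without a run may thus hold one close by. The difference between these classes was not tested.

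Genes around the ribosomal proteins were counted from lists of known roles. Beside the counts at an unadjusted p under 0.05 in these lists stands the share of 14.7% of all genes. Of 24 genes of mTORC1 and TOP control 17 were measured, with a median log2 fold change of -0.06, 1 higher past the threshold and 0 lower, and 7 (41.2%) at an unadjusted p under 0.05. The 1 was SESN1, a stress-induced inhibitor of mTORC1. It read 8.449, 8.004, 8.465 and 7.712 in shCD39 and 6.815, 6.444, 6.860 and 7.261 in shCTRL, which differ by 1.31 on the log2 scale (SE 0.20, limma adjusted p = 0.0432). All shCD39 arrays were above all shCTRL arrays, and without shCTRL array 1 the fit called 0 genes in all. The list also held genes with lower means in shCD39, none of which passed. SESN2, the paralog of SESN1, stood at -1.07 (SE 0.24, limma adjusted p = 0.0939) and DDIT4, a stress-induced inhibitor of mTORC1, at -0.79 (SE 0.25, adjusted p = 0.178). EIF4EBP1, a translation repressor that mTORC1 phosphorylates, stood at -0.71 (SE 0.12, adjusted p = 0.0698). The groups of SESN2 and EIF4EBP1 did not overlap, and those of DDIT4 did. The kinase MTOR itself was measured at -0.15 (SE 0.12), and of the 10 S6 kinase genes only RPS6KL1 was measured, at -0.07 (SE 0.13).

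Other mRNAs with a TOP tract, mostly translation factors, were measured for 10 of 21 genes, with a median of -0.16. In this list 0 passed the limma threshold and 4 (40%) were at an unadjusted p under 0.05. The largest differences there were those of the histone chaperone NAP1L1 (-0.83, SE 0.21, limma adjusted p = 0.119) and of NACA, which guards nascent chains (-0.48, SE 0.14, adjusted p = 0.164). The elongation factor EEF1A1 stood at 0.06 (SE 0.10) and EEF2 at -0.16 (SE 0.10). Chaperones and importers of ribosomal proteins, 17 of 23 measured, had a median of -0.14 and 3 higher means. Among the 17, 0 passed the threshold and 6 (35.3%) were at an unadjusted p under 0.05. The importin IPO9 read 7.46, 8.13, 7.49 and 8.28 in shCD39 and 8.67, 8.61, 8.58 and 8.50 in shCTRL (-0.75, SE 0.18, adjusted p = 0.104). The importin KPNB1 read 9.83, 10.43, 9.88 and 10.77 in shCD39 and 10.83, 10.79, 10.85 and 10.78 in shCTRL (-0.58, SE 0.19, adjusted p = 0.186). In both, every shCD39 array was below every shCTRL array, with arrays 2 and 4 nearest to them.

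Ribosomal protein-like genes outside the selection were all measured, 5 of 5, with a median of 0.27. Of these 0 passed the limma threshold and 3 (60%) were at an unadjusted p under 0.05. RPS27L, a p53-induced relative of RPS27, read 4.68, 4.16, 4.68 and 4.04 in shCD39 and 3.78, 3.70, 4.03 and 3.84 in shCTRL (0.55 on the log2 scale, SE 0.16, limma adjusted p = 0.153). RPL22L1, the paralog of RPL22, read 5.85, 5.78, 6.07 and 5.49 in shCD39 and 5.27, 5.29, 5.44 and 5.37 in shCTRL (0.45, SE 0.13, adjusted p = 0.145). In both the groups did not overlap. The parent RPL22 had 0.04 (SE 0.12), and RPS27 the 0.14 given above. FAU, whose product yields a small-subunit protein after a ubiquitin-like part is cut off, had 0.09 (SE 0.09), without overlap of the groups; it was the 1 gene measured of 3 in its list. Of 9 genes of the MDM2 and p53 arm 5 were measured, with a median of -0.18, and 0 passed by limma at either the adjusted or the unadjusted level. There the p53 inhibitor MDM4 stood at -0.24 (SE 0.16) and the RNA polymerase I factor RRN3 at -0.21 (SE 0.13).

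Mitochondrial ribosomal protein genes, which serve a separate ribosome, had a median of -0.09 over 73 genes with 24 higher means. At an unadjusted p under 0.05 there were 15 of them (20.5%), against 2 of the 48 cytosolic genes (4.17%) and 14.7% of all genes. In either set 0 passed the threshold. The difference between the sets was not tested.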

How the data were processed

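Per the labels' protocols, total RNA was labelled with the GeneChip WT PLUS Reagent kit as biotinylated cRNA for Affymetrix arrays. The deposited log2 values were made by the authors with RMA in the oligo package, per the submitters' processing notes. The sources used here name neither its version nor a genome build. The table held 53617 probe sets on 8 arrays, and 16098 probe sets had exactly 1 symbol in the platform annotation, with Entrez IDs matched to RefSeq GRCh38.p14; 37519 are unnamed here. Arrays give no depth; their number limits the precision.

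Each gene took its probe set with the highest mean. Groups were compared with limma 3.58.1 (lmFit, eBayes) in R 4.3.3 over 14884 genes, 2-sided, with Benjamini-Hochberg adjustment and a threshold of 0.05; intervals are 95% limma intervals. Single values were also compared with 2-sided exact permutation tests. The fit was tested on simulated data. Figures used matplotlib 3.10.9.

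Members and lists were chosen with earlier results of these data known. Values of every array are printed for members past the threshold, the 6 highest and 6 lowest fold changes, paralogs with parents, RPL11 and genes whose probe sets differ in sign, and from each list for genes past the threshold or up to 2 others. RPS27, RPL41, RPL26, RPS6, RPS15A, and the further values of RPS14, RPS3, RPL19, RPL22, SESN2, DDIT4, EIF4EBP1, MTOR, EEF1A1 and EEF2, were chosen after their values were seen. The TOP search and the check of probe set neighbours were likewise added later. Same-numbered arrays were not treated as pairs.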

Additional observations from a re-analysis of the deposited data

Results flagged for a closer look

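RPL27 in shCD39 had 1 array apart from the others: array 2 read 10.30, while arrays 1, 3 and 4 read 10.08, 10.09 and 10.12, and the shCTRL arrays 9.87 to 10.10. The gap exceeded Dixon's 95% critical value for 4 values. Such a gap also occurred in shCD39 for RPL17 (array 2, 8.27) and for RPL29 and RPL35 (array 1, 7.61 and 7.44), in all 4 of 96 groups of 4 arrays. Chance flags about 1 in 20 groups.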

How the results depend on the processing

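The count of ribosomal protein genes past the threshold was 0 in the main fit and in all 18 alternative fits, with a lowest adjusted p of 0.0942. The median log2 fold change moved to 0.065 after cyclic loess and 0.062 after quantile normalization, and leaving out 1 array gave -0.02 to 0.04. Genes with a higher mean in shCD39 numbered 19 to 34 when 1 array was left out, the 19 without shCD39 array 2. Genes whose groups did not overlap numbered 9 after cyclic loess, 7 without both arrays numbered 4 (14.6%, all genes 23.9%), 4 to 6 with 1 array left out, and 1 (RPS19) with probe sets on the own chromosome, a setting chosen after seeing the data. Among the 15 named ribosomal protein genes signs turned for RPL10, RPL11 and RPL3L, in 11 of the alternative values. RPL10 had -0.00095 after median centring, -0.0023 after quantile normalization and -0.013 without both arrays numbered 4, and ran from -0.021 to 0.038 with 1 array left out. RPL11 had -0.0082 after median centring and ran from -0.019 to 0.048, and RPL3L ran from -0.0018 to 0.10. With 1 array left out RPL39 ran from 0.05 to 0.33, RPL35A from -0.23 to -0.05, RPL24 from -0.27 to -0.10, RPL32 from -0.32 to -0.13, RPL31 from 0.15 to 0.34 and RPS26 from 0.17 to 0.42, while RPS19 ran from 0.29 to 0.34 and RPS18 from 0.24 to 0.30. The cause was not tested. With the replicate number as a block, 0 members passed and RPS19 had a limma adjusted p of 0.248. Same-numbered arrays correlated at -0.01, -0.04, 0.05 and 0.06 in their deviations, and unlike-numbered ones at -0.098 to 0.133. Same-numbered arrays were thus no more alike than others, which cannot exclude that they were paired. Of 269 alternative values of named genes 258 kept direction and call.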
